A study of Danio rerio with 6 samples.

Results

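This report describes the stretches of the zebrafish genome from which transcripts were assembled in RNA of embryo bodies without heads but in which none of the transcripts carried a gene name. A locus was a group of transcripts that the assembly had placed under 1 identifier, and its level was the sum of the FPKM of its transcripts, that is, of fragments counted per transcript length and per library size. Of 35962 loci in the tables, 5096 held no named transcript. The 4530 of these with a mean of at least 0.5 FPKM over the 6 pools are called unnamed loci below, and 566 stayed under that threshold. None of the values that chose them was a difference between genotypes. They are set beside the 16297 loci with a named gene that reached the same mean, out of 30866 with a named gene in all. Each unnamed locus keeps its assembly identifier (MSTRG and a number), since no annotation of the same build gave it another name.

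An assembler such as StringTie joins overlapping aligned reads into transcripts, with or without a reference annotation, and gives a new identifier to those that match no annotated gene. In general such loci can be non-coding RNAs, unannotated ends or introns of known genes, transcribed repeats, or fragments. A transcript with a single exon contains no splice junction, so the assembler has no spliced read from which to take its strand or its limits. Zrsr2 is a protein of the minor spliceosome that helps to recognize the 3′ splice site of U12-type introns, the rare class removed by that spliceosome.

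The embryos were of the Tab5 strain and were collected at 3 days post-fertilization (dpf), and each library came from 10 bodies left after the heads had been cut off for genotyping. The 3 WT pools came from in-crosses of WT siblings (clutches 12, 13 and 15). The 3 mutant pools were homozygous *zrsr2hg129/hg129* embryos (clutches 3, 4 and 7) from in-crosses of heterozygous fish, and the allele is a small deletion, made with CRISPR/Cas9, that shifts the reading frame. Titles of the mutant samples name the heterozygous cross, while the genotype label gives the homozygous allele. WT and mutant pools never shared a clutch, and RNA integrity was better in each WT library than in any mutant library, so that clutch, cross, RNA integrity and genotype cannot be told apart.

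Coverage multiplied by transcript length came to 7.50 to 9.26 gigabases in the WT pools and 8.85 to 9.17 gigabases in the mutant pools, the WT pool of clutch 15 being the lowest. *zrsr2* itself summed to 1.38, 1.50 and 1.39 FPKM in WT and to 0.513, 0.793 and 1.06 FPKM in mutants. The skeletal muscle list (5 genes) summed to 22158 to 31345 FPKM over all pools, while the lens and retina list (5 genes) summed to at most 1.04 FPKM, with *opn1lw1* listed at 0 in every pool, which matches the label of bodies without heads. The sums of the muscle and epidermis lists were higher in all mutant pools than in all WT pools, but among their genes only *tnnt3a* and *krt4* did not overlap. Markers of the exocrine pancreas (4 of 4 genes) did not overlap between genotypes, with a sum of 533 to 684 FPKM in WT and 17.3 to 51.7 FPKM in mutants. The 3 liver markers summed to 1832 to 2852 FPKM in WT and 891 to 1787 FPKM in mutants, without overlap in *fabp10a* and *tfa* but with overlap in *apoa1b*. In pools of whole bodies, fewer cells of a type and less RNA per cell cannot be told apart.

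Most unnamed loci were short, unspliced and weakly covered. A single exon made up 2974 of them (65.7%), against 2.0% of the loci with a named gene. Another 875 had 2 exons, 430 had 3 or 4, 196 had 5 to 9 and 55 had 10 or more, counted in the transcript with the most exons. The longest transcript of an unnamed locus had a median of 795 bases (quartiles 401 and 1719, range 200 to 14266), against 2575 bases for loci with a named gene. A total of 4165 held 1 transcript only. They were spread evenly over the strands, with 2276 on the plus and 2254 on the minus strand.

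The median level was 1.13 FPKM (quartiles 0.838 and 1.92), against 3.18 FPKM for loci with a named gene. Only 88 unnamed loci reached 20 FPKM, and 3455 stayed under 2 FPKM. Behind the median unnamed locus stood 12.1 kilobases of aligned sequence per pool, against 93.6 kilobases for a locus with a named gene, so that the values of most of them rest on few reads. The rule kept loci that were just over its threshold for very different reasons. MSTRG.7621 (chromosome 17, a 1-exon locus) was listed at 0.0251, 0.656 and 0.0603 FPKM in WT and 0.158, 1.92 and 0.190 FPKM in mutants, so that clutch 13 and clutch 4 carried its mean. MSTRG.18499 (chromosome 4) ranged from 0.163 to 1.25 FPKM. Just under the threshold, MSTRG.16314 (chromosome 3) ranged from 0 to 1.39 FPKM and MSTRG.7131 (chromosome 16) from 0.269 to 0.690 FPKM.

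Unnamed loci were found on all 25 chromosomes, but they were unevenly distributed. Chromosome 4 held 355 of them and 583 loci with a named gene, a ratio of 0.61, while the ratio on the other 24 chromosomes lay between 0.19 and 0.29. The excess came from the distal part of that chromosome. From 30 Mb onwards it held 269 unnamed and 133 named loci, and below 30 Mb it held 86 unnamed and 450 named loci. The long arm of zebrafish chromosome 4 is known for its repeats and its scarcity of protein-coding genes. Scaffolds not placed on a chromosome held 362 unnamed loci against 166 with a named gene, and 261 such scaffolds had at least 1. On the mitochondrial genome there was 1, MSTRG.25206 (1 to 898, minus strand), at 54.7, 68.4 and 36.8 FPKM in WT and 35.0, 133 and 86.3 FPKM in mutants, which overlapped.

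**Figure D1:**
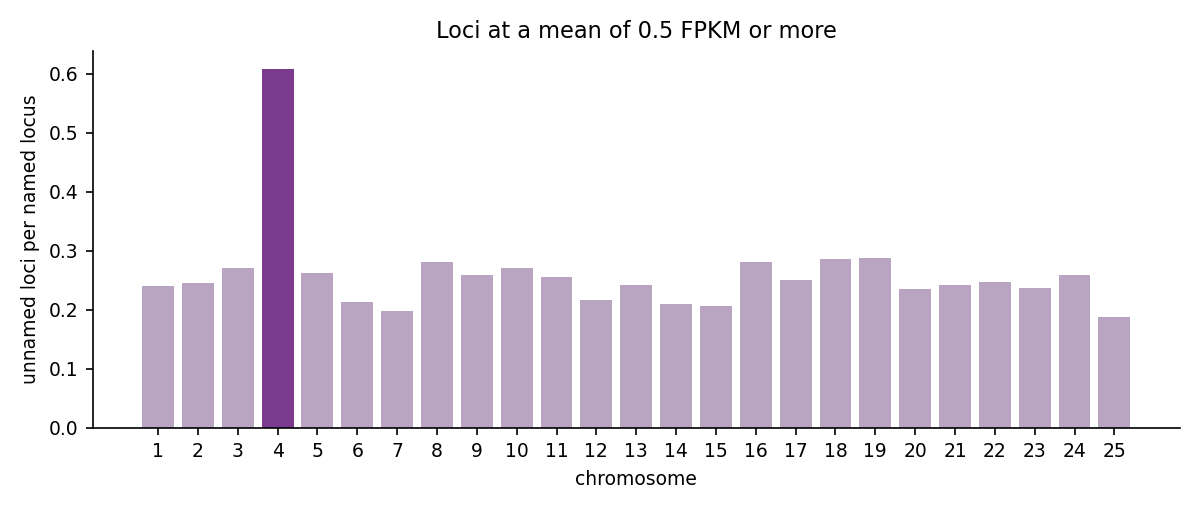
Number of unnamed loci per locus with a named gene on each of the 25 chromosomes (bars), counting loci at a mean of 0.5 FPKM or more. Chromosome 4 (dark bar) stands at 0.61 and the other 24 chromosomes between 0.19 and 0.29.

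With a limit of 5 kb, the most frequent position of unnamed loci was behind a named gene on its strand. This ranking depended on the limit, as with 1 kb 2454 (54.2%) counted as farther away and 681 (15.0%) as downstream on the same strand. Downstream on the same strand and within 5 kb of a locus with a named gene were 1478 of them (32.6%), 82.5% of which had 1 exon, and 681 of these started within 1 kb. Upstream on the same strand there were 300. On the other strand, 282 lay within 5 kb downstream and 144 within 5 kb upstream. A total of 562 overlapped a locus with a named gene on the other strand and 387 overlapped one on the same strand, 328 of these within its span. Whether such loci lie in introns or exons was not determined, since the tables give no exon coordinates. The remaining 1146 were farther away, and 231 stood on scaffolds without a named locus. Many also had each other as neighbours, as 1196 (26.4%) lay within 5 kb of another unnamed locus on the same strand.

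To find which loci differed between genotypes, FPKM were scaled between pools and compared with limma over all 25349 loci with a mean of at least 0.1 FPKM. A locus was called when its adjusted p was under 0.05 and its log2 fold change was at least 1 in size. All 4530 unnamed loci entered the fit. Of these, 236 (5.21%) were called, against 4.07% of all loci tested. The direction was where they departed from the whole table. A rise in mutants was called in 186 (4.11%), against 1.79% of all loci tested, and a fall in 50 (1.1%), against 2.28%. Among the loci with a named gene there were 192 rises and 450 falls.

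The shift was not limited to the called loci. The median log2 fold change of the unnamed loci was 0.40 (quartiles -0.07 and 0.84) and 71.9% were above 0, while the median was 0.02 over all loci tested and -0.02 for those with a named gene. After scaling, the 3 mutant pools lay wholly above the 3 WT pools in 1170 unnamed loci (25.8%), against 16.0% of all loci tested, and wholly below in 252 (5.56%), against 16.8%. The shift appeared at every level of expression, with medians of 0.41 at 0.5 to 1 FPKM, 0.36 at 1 to 2 FPKM, 0.40 at 2 to 5 FPKM, 0.42 at 5 to 20 FPKM and 0.72 at 20 FPKM or more.

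Some of these calls were bound to differ, because a locus could pass the threshold through the genotype where it was high. A mean of 0.5 FPKM was reached only in mutants by 471 loci, 79 of them called higher, and only in WT by 198, 24 of them called lower. In the 3861 that reached it in both genotypes there were 107 rises (2.77%) and 26 falls (0.673%), with a median log2 fold change of 0.35. Together 3.44% of these were called, which is not above the 4.07% of all loci tested. Rises remained above and falls below the 1.79% and 2.28% of all loci tested, which were not restricted in this way. In the 2741 with at least 0.5 FPKM in every pool there were 94 rises (3.43%) and 23 falls (0.839%), together 4.27%, with a median of 0.34. A locus is also in the tables only because reads of some pool were assembled there, and the part of that selection in the difference was not tested.

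The number of calls rested on single pools far more than the direction did. It was 47 without WT clutch 12, 62 without WT clutch 13 and 108 without WT clutch 15. Without a mutant pool it was 517 for clutch 3, 151 for clutch 4 and 80 for clutch 7. The excess in the share of called loci did not hold in all of these fits. It was 1.04% of unnamed loci and 1.04% of all loci tested without WT clutch 12, 1.37% and 1.12% without WT clutch 13, and 2.38% and 2.32% without WT clutch 15. Without mutant clutch 3 it was 11.4% and 5.48%, without mutant clutch 4 it was 3.33% and 3.15%, and without mutant clutch 7 it was 1.77% and 1.95%. Rises made up between 63.8% and 89.2% of the calls at unnamed loci, and the median log2 fold change of the unnamed loci stayed between 0.33 and 0.43. With FPKM as deposited, without scaling, there were 105 rises and 73 falls among unnamed loci (3.93%, against 4.60% of all loci tested), and the median of all loci tested moved to -0.12 while that of the unnamed loci was 0.25. The pseudocount mattered too, as 82 loci (1.81%, against 1.71% of all loci tested) were called with 1 FPKM added in place of 0.1 FPKM.

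The difference between genotypes followed the number of exons. The median log2 fold change was 0.49 for unnamed loci with 1 exon, 0.28 with 2 exons, 0.13 with 3 or 4 exons, -0.01 with 5 to 9 exons and 0.01 with 10 or more. Of the 2974 loci with 1 exon, 142 were called higher (4.77%, against 1.79% of all loci tested) and 16 lower (0.538%, against 2.28%). Of the 251 with 5 exons or more, 4 were called higher (1.59%) and 12 lower (4.78%). The 4 rises were MSTRG.12238 and MSTRG.1569, both among the largest rises, MSTRG.16409 on chromosome 3 and MSTRG.635 on chromosome 1, the latter a pair named after their values were seen. MSTRG.16409 was at 16.6, 15.8 and 22.8 FPKM in WT and 48.3, 32.2 and 32.9 FPKM in mutants, and MSTRG.635, with 11 exons, at 0.573, 1.60 and 0.666 FPKM in WT and 1.91, 2.86 and 2.85 FPKM in mutants. In both the genotypes did not overlap. Of the 6 fits that left out 1 pool, however, MSTRG.16409 was called in 0 and MSTRG.635 in 1, with adjusted p up to 0.136 and 0.140 (limma). The named locus nearest to MSTRG.635, si:dkey-56e3.2, 2873 bases away on the same strand, was called higher too (log2 fold change 1.41, adjusted p = 0.0128 from limma). The named locus that MSTRG.16409 overlaps on its strand was not called (log2 fold change 0.21, adjusted p = 0.754 from limma). In loci with a named gene the median was 0.21 for the 323 with 1 exon and between -0.03 and 0.02 for those with more. Called rises were not rarer in these 323 than in unnamed loci with 1 exon, at 24 (7.43%) with 4 falls (1.24%), and the share whose mutant pools lay wholly above the WT pools was 30.3%, against 29.8% for unnamed loci with 1 exon. With 5 exons or more, 0.920% of the loci with a named gene were called higher and 2.77% lower. Without scaling, the median of 1-exon unnamed loci was 0.35, that of loci with 3 or 4 exons was -0.01 and that of loci with 5 exons or more was -0.16. Relative to the median of all loci tested these classes hardly moved, as that of loci with 3 or 4 exons was 0.11 above it with and without scaling.

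The shift of 1-exon loci was seen in the single pools, although not to the same degree. The median deviation of these loci from their own mean over the 6 pools (log2) was -0.23, -0.09 and -0.38 in WT clutches 12, 13 and 15. In mutants it was 0.03 in clutch 3, 0.31 in clutch 4 and 0.37 in clutch 7. All mutant pools were therefore above all WT pools, but WT clutch 13 and mutant clutch 3 stood close to each other. For unnamed loci with 10 or more exons the pools of both genotypes were mixed, between -0.12 and 0.16. RNA integrity moved with the genotype in these pools, and its part in the shift of 1-exon loci was not tested.

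**Figure D2:**
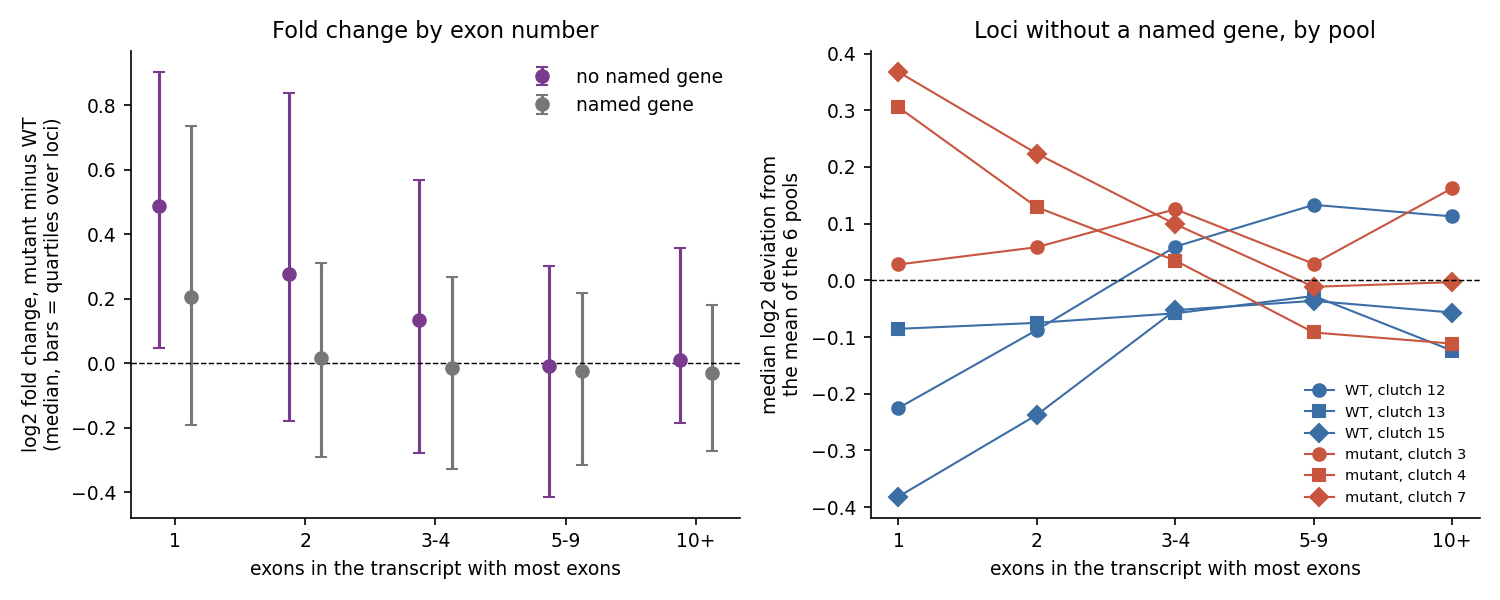
Left, median log2 fold change (mutant minus WT) by number of exons for unnamed loci and for loci with a named gene, with bars from the lower to the upper quartile over loci. Right, median log2 deviation from the mean of the 6 pools for unnamed loci in each pool, where the pools of both genotypes separate at 1 exon (-0.38 to -0.09 in WT, 0.03 to 0.37 in mutants) and mix from 3 or 4 exons on.

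Length showed a weaker order. The median log2 fold change was 0.25 for unnamed loci of up to 500 bases, 0.32 from 500 to 1000 bases, 0.52 from 1000 to 2000 bases, 0.49 from 2000 to 5000 bases and 0.46 above 5000 bases. The standard deviation within a genotype (log2) had a median of 0.66 in the shortest and 0.31 in the longest of these classes, and 80.5% of those from 2000 to 5000 bases and 88.1% of those above 5000 bases had a positive log2 fold change, against 62.2% of the shortest. Across chromosomes the median was positive on each, and chromosome 4 had the highest of the 25, at 0.63. On unplaced scaffolds it was 0.17, and on scaffolds without any named locus it was 0.08.

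Loci behind a gene could be compared with that gene in the same pools. For the 1437 downstream loci whose named neighbour was also tested, the median log2 fold change was -0.34 in the neighbours (1321 different loci). All 1478 downstream loci had a median of 0.46 themselves, against 0.40 for all unnamed loci. Within the 1437 pairs the difference had a median of 0.80. The fold changes of the unnamed locus and of its neighbour were correlated across these pairs (Pearson's r = 0.47), where both values come from the same 6 libraries. The median of the difference within pairs was 0.45 for unnamed loci farther away, 0.39 downstream on the other strand and 0.39 for overlap on the same strand. It was 0.34 for overlap on the other strand, 0.24 upstream on the same strand and 0.10 upstream on the other strand. Named neighbours in these other classes had median log2 fold changes between -0.05 and 0.06, against the -0.34 given above.

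In 1268 of these pairs the neighbour had a mean of at least 0.5 FPKM. The ratio of the unnamed locus to its neighbour was taken in each pair after adding 0.1 FPKM to both. Its median over pairs was 59.0%, 74.5% and 54.2% in WT clutches 12, 13 and 15. It was 90.6%, 118% and 118% in mutant clutches 3, 4 and 7, so that the genotypes did not overlap. The log2 ratio was higher in mutants in 1167 of the 1268 pairs (92.0%), with a median difference of 0.82. FPKM are per length, so that a ratio of 100% means equal coverage of the unnamed locus and of the gene ahead of it. Both members of a pair share their pool, and the part of RNA integrity in this ratio was not tested.

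**Figure D3:**
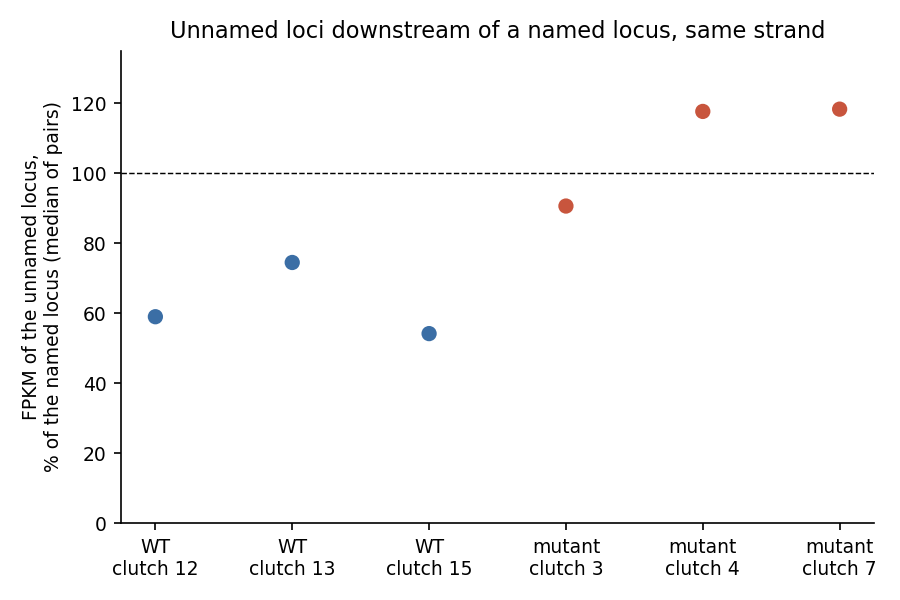
FPKM of unnamed loci as a percentage of the FPKM of the named locus within 5 kb ahead of them on the same strand, as the median over 1268 pairs in each pool (points). Before the ratio of a pair was taken, 0.1 FPKM was added to both values. WT pools lie between 54.2% and 74.5% and mutant pools between 90.6% and 118%.

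Of the 5 longest unnamed loci, 4 lay downstream of a gene on its strand. MSTRG.7118 (chromosome 16, 50987333 to 50998746, minus strand) had 1 exon of 11414 bases and began 3211 bases behind *ago3a*, which encodes an Argonaute protein of small RNA pathways. It was at 3.10, 3.12 and 2.77 FPKM in WT and 3.41, 3.56 and 3.45 FPKM in mutants, while *ago3a* was at 0.333, 0.329 and 0.270 FPKM in WT and 0.186, 0.199 and 0.230 FPKM in mutants. The unnamed locus was thus covered far more deeply than the annotated gene in all pools. It was not called (log2 fold change 0.36, standard error 0.13, adjusted p = 0.134 from limma).

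MSTRG.13979 (chromosome 23, 6315023 to 6324821, plus strand) stood 1215 bases behind *syt2a*, which encodes a synaptotagmin, a calcium sensor of synaptic vesicles. It was at 1.98, 1.94 and 1.38 FPKM in WT and 1.44, 2.31 and 2.44 FPKM in mutants, so that the genotypes overlapped, and *syt2a* was at 0.616 to 0.940 FPKM in WT and 0.367 to 0.513 FPKM in mutants. MSTRG.9550 behind *znf704* and MSTRG.23688 behind *ube2d4*, with transcripts of 10593 and 10261 bases, also overlapped between genotypes, with log2 fold changes of 0.36 and 1.03 (adjusted p of 0.275 and 0.169 from limma). The longest unnamed locus of all, MSTRG.4131, with 14266 bases, lay on the other strand 2359 bases behind *drgx*. Its values were 1.93, 1.99 and 1.20 FPKM in WT and 1.79, 3.16 and 4.22 FPKM in mutants, and it was not called (adjusted p = 0.120 from limma). None of the 5 longest loci was called.

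The 10 largest rises among called loci whose genotypes did not overlap were all at 0.57 FPKM or less in WT. Their WT means were at most 0.248 FPKM and their mutant means at least 1.62 FPKM, so that each passed the threshold only through the mutant pools. MSTRG.8648 (chromosome 18, 35198497 to 35198972, minus strand, 1 exon) was listed at 0 in all 3 WT pools and at 1.24, 2.13 and 1.52 FPKM in mutants, so that no fold change is given (adjusted p = 0.000934 from limma). MSTRG.8649, 35199400 to 35199807 on the same strand, was listed at 0, 0 and 0.0393 FPKM in WT and at 0.583, 2.62 and 2.51 FPKM in mutants. These neighbouring loci lay on the opposite strand from *cfap45*, a gene of cilia, and behind its end. The *cfap45* locus itself was at 0.496 to 0.797 FPKM in WT and 0.701 to 0.835 FPKM in mutants and was not called.

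Besides that of MSTRG.635, a rise next to a gene that rose too was found on chromosome 5. MSTRG.19703, named here after its values were seen, lay 739 bases behind si:dkey-204l11.1 on the same strand and rose with it, from 0.0914, 0.160 and 0.147 FPKM to 1.20, 1.83 and 2.04 FPKM. By limma, MSTRG.19703 had a log2 fold change of 3.04 (adjusted p = 0.00233) and si:dkey-204l11.1 of 2.86 (adjusted p = 0.00843). MSTRG.19703, too, passed the threshold only through the mutant pools.

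Several large rises lay near or within a gene that was not called. MSTRG.1569 (chromosome 10, 28710783 to 28715143, minus strand, 5 exons) lay on the other strand within *cblb*, a ubiquitin ligase of receptor signalling, and rose from 0, 0.0818 and 0 FPKM to 3.19, 1.94 and 1.04 FPKM. MSTRG.12238 (chromosome 21, 8516657 to 8519710, plus strand) had 7 exons, the most among these 10, and rose from at most 0.0479 FPKM to 1.02, 1.96 and 3.61 FPKM, 3465 bases from *crb2a*, a gene of epithelial polarity. MSTRG.6316 (chromosome 16, 4 exons) lay within the span of *grik5*, a glutamate receptor gene, on its strand, at 0.156, 0.570 and 0 FPKM in WT and 3.33, 2.37 and 2.06 FPKM in mutants. The genes *cblb*, *crb2a* and *grik5* had log2 fold changes of 0.31, 0.13 and -0.14, with adjusted p of 0.153, 0.722 and 0.713 (limma), so that none was called.

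MSTRG.21793 (chromosome 7, 21811901 to 21820572) rose from 0.164, 0.251 and 0.328 FPKM to 4.13, 1.87 and 5.67 FPKM. MSTRG.19259 (chromosome 5, 15864171 to 15864817, 1 exon), which lay 12218 bases from the nearest named locus, rose from 0.218, 0.144 and 0.272 FPKM to 4.48, 2.81 and 2.24 FPKM. In both, every mutant pool lay far above the highest WT pool. MSTRG.19415 was at up to 0.0876 FPKM in WT and 0.799 to 2.79 FPKM in mutants (log2 fold change 3.55, standard error 0.46, adjusted p = 0.0105 from limma). The last were MSTRG.19000 on chromosome 5, at up to 0.0679 FPKM in WT and 0.941 to 3.32 FPKM in mutants, and MSTRG.3916 on chromosome 13, at up to 0.136 FPKM in WT and 0.970 to 5.04 FPKM in mutants, where clutch 7 stood above the other mutant pools.

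These calls were not equally firm. MSTRG.8648, MSTRG.1569, MSTRG.12238, MSTRG.21793 and MSTRG.19259 kept their calls whichever of the 6 pools was left out. MSTRG.19000 lost its call without WT clutch 12, MSTRG.19415 without WT clutch 13, and MSTRG.8649 without either, with adjusted p of 0.0503, 0.0510 and up to 0.0542 (limma). MSTRG.3916 was called in 3 of the 6 fits, losing its call without each WT pool, and MSTRG.6316 in 2 of 6, losing it without WT clutch 12 and without each mutant pool, with adjusted p up to 0.0954 and 0.107 (limma).

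Of the 274 unnamed loci that lay inside the span of a tested named locus on its strand, 134 had the same sign as that locus. Called were 19 of the unnamed loci that overlap a named locus on its strand (4.91%) and 30 of those on the other strand (5.34%), against 4.07% of all loci tested. In 3 of these called loci, named here after their values were seen, the gene had the opposite sign without being called. How many of the other called loci did so was not counted. MSTRG.24281 (chromosome 9, 32798964 to 32799834, 1 exon) lay within *gatd3a* on its strand and was at 0.112, 0.0581 and 0.0646 FPKM in WT and 1.15, 1.02 and 1.72 FPKM in mutants (log2 fold change 3.05, standard error 0.26, adjusted p = 0.00361 from limma). Over the same pools the *gatd3a* locus was at 9.62, 10.4 and 9.63 FPKM in WT and 5.13, 4.76 and 4.08 FPKM in mutants (log2 fold change -0.92, standard error 0.15, adjusted p = 0.0230 from limma), which did not reach the size required for a call. MSTRG.7818 within *ccdc28a* on its strand was at 0.102 to 0.337 FPKM in WT and 1.34 to 1.83 FPKM in mutants. MSTRG.16033 on the other strand from *washc4* was at 0.0910 to 0.220 FPKM in WT and 1.40 to 2.47 FPKM in mutants. The loci of *ccdc28a* and *washc4* had log2 fold changes of -0.30 and -0.35 (adjusted p of 0.230 and 0.143 from limma). All 3 unnamed loci were called in each of the fits that left out 1 pool, but each had passed the threshold only through the mutant pools.

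Among the 10 largest falls, the highest levels were above those of the 10 largest rises. MSTRG.19191 (chromosome 5, 11392213 to 11404322, plus strand, 4 exons) was at 37.8, 45.0 and 41.8 FPKM in WT and 2.74, 1.35 and 2.06 FPKM in mutants (log2 fold change -4.17, standard error 0.28, adjusted p = 0.00148 from limma). Its nearest named locus, zgc:112294, 3182 bases away, was listed at 0 in all pools. MSTRG.21651 (chromosome 7, 13802084 to 13813871, minus strand) had 5 exons and fell from 13.6, 18.1 and 13.6 FPKM to 2.90, 2.03 and 1.89 FPKM (log2 fold change -2.53, standard error 0.24, adjusted p = 0.00502 from limma). Leaving out any of the 6 pools ended neither call.

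Near each other on chromosome 20 were 2 falls. MSTRG.11984 (54579860 to 54583748, plus strand, 2 exons) was at 66.4, 53.7 and 56.7 FPKM in WT and 10.3, 7.02 and 11.6 FPKM in mutants (log2 fold change -2.47, standard error 0.22, adjusted p = 0.00432 from limma). MSTRG.11988 (54586535 to 54588334, plus strand), named here after its values were seen, was at 29.2, 48.5 and 36.8 FPKM in WT and 10.9, 7.56 and 11.2 FPKM in mutants. The first held in all 6 fits that left out 1 pool, and the second lost its call without WT clutch 13, with an adjusted p of 0.0510 (limma).

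At other falls a neighbouring gene fell too. MSTRG.12519 (chromosome 21, 25216458 to 25222060, minus strand, 3 exons) lay on the other strand from *sycn.2* and *sycn.3*, which encode syncollins of the zymogen granules of the pancreas. It was at 5.08, 5.60 and 1.47 FPKM in WT and 0.0626, 0 and 0 FPKM in mutants, and the locus of both genes was at 9.82, 20.3 and 10.2 FPKM in WT and at most 0.0297 FPKM in mutants. Markers of the exocrine pancreas moved with this locus, as given above, and their part in its fall was not tested. The libraries were made with a stranded kit, and all unnamed loci, also those with 1 exon, are listed on the plus or the minus strand. The strand setting of the assembly is not given in the sources used here. Whether reads of 1 of these overlapping loci were counted in the other was not tested.

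MSTRG.2839 (chromosome 12, 3217579 to 3218877, minus strand) lay 1408 bases behind si:ch1073-13h15.3, and MSTRG.25115 lay 3980 bases ahead of *bglapl*, an osteocalcin-like gene, on an unplaced scaffold. The first fell from 3.15, 5.21 and 1.80 FPKM to 0.787, 0.529 and 0.521 FPKM, the second from 24.1, 21.2 and 21.2 FPKM to 5.17, 2.61 and 2.90 FPKM. Their named neighbours were called lower as well, with log2 fold changes of -2.19 and -2.00. MSTRG.25125 and MSTRG.25124, both on the minus strand of the scaffold that carries *setdb2*, a histone methyltransferase gene on the other strand, fell to between 0.380 and 1.68 FPKM from between 2.34 and 6.41 FPKM. The *setdb2* locus had a log2 fold change of -0.03 and was not called. MSTRG.25124 and MSTRG.9035, the latter on chromosome 19 with 0.819 to 2.70 FPKM in WT and 0.234 to 0.398 FPKM in mutants, were named after their values were seen. MSTRG.9035 passed the threshold only through the WT pools.

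The falls with the lowest FPKM lay near the limit of detection. MSTRG.25170, on a scaffold without a named locus, was at 0.757, 1.85 and 3.09 FPKM in WT and listed at 0 in all 3 mutant pools. MSTRG.8637 (chromosome 18, 276 bases) was at 0.972, 0.947 and 2.14 FPKM in WT and 0, 0.296 and 0 FPKM in mutants. MSTRG.13190 (chromosome 22, 215 bases) was at 0.477, 1.50 and 0.846 FPKM in WT and 0, 0.0550 and 0.136 FPKM in mutants. MSTRG.25170, MSTRG.8637, MSTRG.13190 and, from above, MSTRG.12519 passed the threshold only through the WT pools. Of the weaker falls, MSTRG.8637 was called in 1, MSTRG.13190 in 2, MSTRG.2839 in 2, MSTRG.25124 in 1, MSTRG.9035 in 1 and MSTRG.25125 in 0 of the 6 fits that left out 1 pool, with adjusted p up to 0.108, 0.0856, 0.118, 0.0959, 0.140 and 0.0823 (limma). MSTRG.25115 lost its call only without WT clutch 12 (adjusted p = 0.0513 from limma), and MSTRG.25170 kept it in all 6. With limma-voom on estimated read pairs, 4 of the 10 falls lost their calls, namely MSTRG.12519, MSTRG.8637, MSTRG.13190 and MSTRG.25125 (adjusted p of 0.0502, 0.0520, 0.0775 and 0.0576), as did 1 of the 10 rises, MSTRG.3916 (0.0756). With a pseudocount of 0.01 FPKM, MSTRG.6316, MSTRG.8637 and MSTRG.13190 lost theirs (adjusted p of 0.0803, 0.0667 and 0.0595 from limma), and with 1 FPKM MSTRG.3916, MSTRG.13190 and MSTRG.25125 did.

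**Figure D4:**
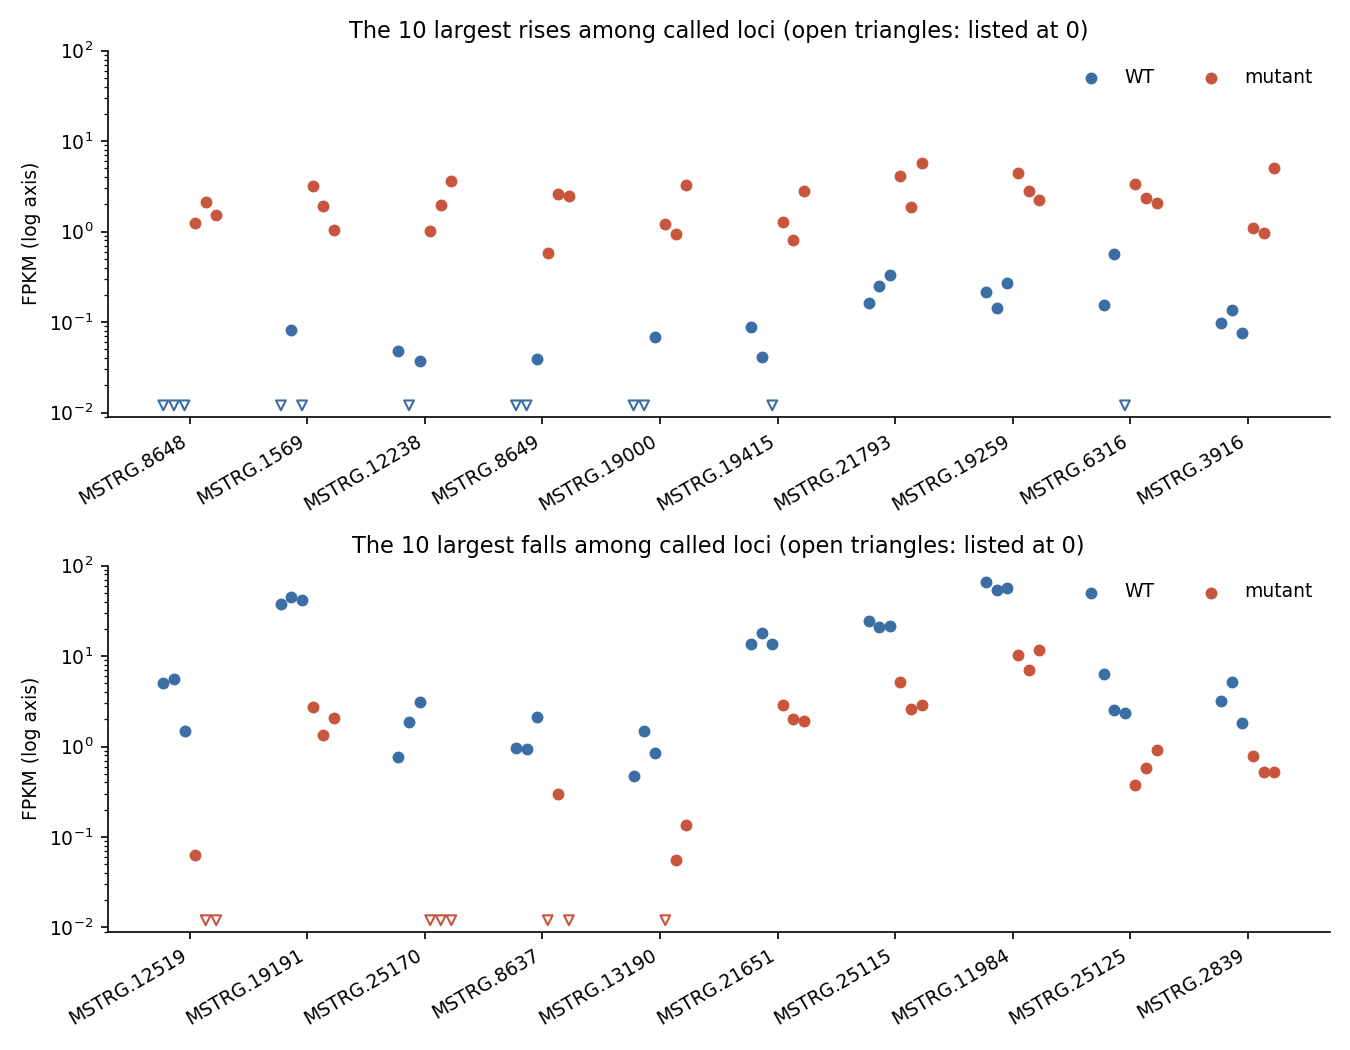
FPKM on a log axis in the 3 WT (blue) and 3 mutant (red) pools for the 10 largest rises (top) and the 10 largest falls (bottom) among called unnamed loci, 1 point per pool, with open triangles for pools listed at 0. In MSTRG.19191 the WT pools lie between 37.8 and 45.0 FPKM and the mutant pools between 1.35 and 2.74 FPKM, while rises start from 0.57 FPKM or less.

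The 8 unnamed loci with the highest FPKM were of several kinds, and the first pair varied widely among the pools of both genotypes. MSTRG.81 (chromosome 1, 3112520 to 3113188, plus strand, 36 transcripts) was at 13486, 23960 and 6460 FPKM in WT and 26868, 6097 and 10272 FPKM in mutants. Opposite to it, MSTRG.82 (3112805 to 3113188, minus strand, 32 transcripts) was at 1021, 4573 and 1878 FPKM in WT and 1181, 677 and 917 FPKM in mutants. Both overlap the span of *gpc5a*, a glypican gene, which was at 1.97 to 8.67 FPKM. In WT clutch 13 and mutant clutch 3 these short loci together took up most of the FPKM of all unnamed loci, and neither was called (adjusted p of 0.972 and 0.277 from limma).

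Some of the abundant loci were steady. MSTRG.25119, on an unplaced scaffold, was at 635, 482 and 646 FPKM in WT and 606, 629 and 642 FPKM in mutants. MSTRG.16228 (chromosome 25, 37478038 to 37478725, minus strand) was at 462, 358 and 440.4 FPKM in WT and 399, 481 and 512 FPKM in mutants. In FPKM as deposited the genotypes overlapped in both, while after scaling the mutant pools lay above the WT pools, and neither was called (adjusted p of 0.397 and 0.289 from limma).

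MSTRG.5301 (chromosome 15, 105986 to 120859, plus strand, 2 exons) showed the largest spread within a genotype among the abundant loci. It was at 1531 and 1185 FPKM in WT clutches 12 and 13 but at 35.3 FPKM in WT clutch 15, and at 5.24, 35.4 and 40.5 FPKM in mutants. WT clutch 15 was thus within the range of the mutants, and the locus was not called (adjusted p = 0.135 from limma), while without that pool its adjusted p was 0.0302. It overlaps the locus of *apoa1b*, an apolipoprotein gene, on the other strand, and that locus was at 5057 to 5724 FPKM in WT and 2765 to 4477 FPKM in mutants. Its transcripts that carry the gene name were at 936.9, 544 and 1950 FPKM in WT and 1332, 656 and 542 FPKM in mutants. Neither showed the drop in WT clutch 15 that MSTRG.5301 did, and the transcripts that carry the gene name were highest in that pool.

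Of the 8 loci with the highest FPKM, only MSTRG.19651 was called. It lies on chromosome 5 (32282025 to 32300137, plus strand, 3 exons), opposite to the *myhz1.1*, *myhz1.2* and *myhz1.3* cluster of fast muscle myosin genes, and was at 223, 213 and 278 FPKM in WT and 426, 363 and 633 FPKM in mutants (log2 fold change 1.12, standard error 0.23, adjusted p = 0.0398 from limma). The myosin locus was at 6792 to 8770 FPKM in WT and 8420 to 10418 FPKM in mutants, and had a log2 fold change of 0.39 that was not called. The muscle marker list summed to 22158 to 25845 FPKM in WT and 27412 to 31345 FPKM in mutants, although only *tnnt3a* of its 5 genes did not overlap, and the part of muscle in this rise was not tested. The call of MSTRG.19651 held only without mutant clutch 4 among the 6 fits that left out 1 pool, with adjusted p up to 0.135, and it was lost without scaling between pools (log2 fold change 0.96). MSTRG.6568 (chromosome 16, 23914990 to 23948464, minus strand, 3 exons), named here after its values were seen, was the opposite case, at 153, 179 and 178 FPKM in WT and 67.3, 52.5 and 31.1 FPKM in mutants, on the other strand of the locus of *apoc4* and *nbn*. It was called in 2 of the 6 fits, with adjusted p up to 0.103 (limma).

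Among the loci with the most exons, the genotypes overlapped in all 5 and none was called. MSTRG.7140 (chromosome 16, 51736680 to 51871851, plus strand) had 58 exons and 8160 bases, and its span contains the microRNA gene dre-mir-455-2 on the same strand. It was at 2.76, 1.74 and 2.95 FPKM in WT and 2.01, 2.79 and 2.58 FPKM in mutants. MSTRG.7150 (chromosome 16, 52449554 to 52508237, plus strand) had 22 exons and was at 15.2, 12.7 and 10.8 FPKM in WT and 14.7, 11.4 and 13.8 FPKM in mutants. It ended 3788 bases ahead of *fabp10a*, which encodes the liver fatty acid binding protein and was at 345, 341 and 171 FPKM in WT and 32.6, 17.1 and 27.5 FPKM in mutants, so that these neighbours did not move together.

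The spliced loci with wide spread within a genotype were MSTRG.10777 (chromosome 2, 25 exons), at 2.38, 4.36 and 0.612 FPKM in WT and 0.288, 0.441 and 2.64 FPKM in mutants, and MSTRG.15364 (chromosome 24, 22 exons), at 5.40, 1.14 and 0 FPKM in WT and 0.693, 0.236 and 0.0929 FPKM in mutants. MSTRG.11991 on chromosome 20 had 23 exons and lay between 2.38 and 6.28 FPKM. Their adjusted p was 0.458, 0.638 and 0.553 (limma).

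Pools of the same genotype differed more at unnamed loci than at loci with a named gene. The median standard deviation within a genotype was 0.44 on the log2 scale for unnamed loci and 0.21 for loci with a named gene. It was wider in the loci with a named gene that are most like the unnamed ones. With 1 exon it was 0.30, against 0.44 for unnamed loci, and at up to 500 bases 0.47, against 0.66. A range of at least 16-fold among the 3 pools of a genotype, on the log2(FPKM + 0.1) scale, was found in 139 unnamed loci (3.07%) and in 21 loci with a named gene (0.129%). An example named after its values were seen is MSTRG.2185 (chromosome 11, 12604602 to 12606431, plus strand, 1 exon), which lay within 1 Mb of *zrsr2* (12732247 to 12744082). It was at 3.34, 0.258 and 4.81 FPKM in WT and 10.3, 0.191 and 15.9 FPKM in mutants, so that clutch 13 of the WT and clutch 4 of the mutants were low.

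A locus on another chromosome had almost the same profile. MSTRG.14116 (chromosome 23, 16867687 to 16878595, minus strand) was at 4.60, 0.316 and 5.74 FPKM in WT and 11.8, 0.179 and 18.0 FPKM in mutants, a ratio of 0.937 to 1.38 to MSTRG.2185 in each pool. Such proportional profiles were looked for among the 312 unnamed loci with a mean of at least 2 FPKM and a range of at least 4-fold over the 6 pools, by a rule set after the values were seen. Loci were joined when their log2 profiles, centred on their own means, differed by less than 0.3 in every pool. In this way 104 of the 312 (33.3%) fell into 29 sets, most of them pairs. By the same rule 185 of 399 loci with a named gene (46.4%) fell into 29 sets, so that being in a set is not particular to unnamed loci.

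The largest set of unnamed loci held 15, of which 11 had 1 exon, on 8 chromosomes and scaffolds, 8 of them on chromosome 4. Their median was 22.4, 16.8 and 14.3 FPKM in WT and 42.6, 15.3 and 74.5 FPKM in mutants, so that mutant clutches 3 and 7 were high and mutant clutch 4 was at the level of the WT. MSTRG.19016 (chromosome 5, 797819 to 821345, minus strand) had the highest level in it, at 300.1, 203 and 176 FPKM in WT and 538, 176 and 924 FPKM in mutants. MSTRG.21412 on chromosome 7 was at 26.4% to 33.2% of MSTRG.19016 in every pool, and such a near-constant ratio is what the rule for sets selects. None of the 15 was called.

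Another set of 14 loci on 9 chromosomes had medians of 2.33, 2.88 and 1.82 FPKM in WT and 2.72, 7.46 and 7.20 FPKM in mutants, with mutant clutch 3 at the level of the WT, and 1 of the 14, MSTRG.9309 on chromosome 19, was called (adjusted p = 0.0497 from limma), though only 1 of the 6 fits that left out 1 pool kept that call (adjusted p up to 0.157). A set of 7 was highest in mutant clutch 7, at a median of 351 FPKM, against 41.2 to 63.9 FPKM in WT and 87.7 and 100.2 FPKM in mutant clutches 3 and 4. It includes MSTRG.21406 (chromosome 7, 3084 to 4922, plus strand, 1 exon), at 199.6, 155 and 206 FPKM in WT and 305, 289 and 944 FPKM in mutants (adjusted p = 0.101 from limma). A further set of 7 crossed the genotypes, with medians of 0.983, 0.975 and 6.91 FPKM in WT and 0.906, 7.60 and 8.27 FPKM in mutants, so that WT clutch 15 stood with mutant clutches 4 and 7. MSTRG.2187 and MSTRG.2191, close to each other on chromosome 11 and within 1 Mb of *zrsr2*, belong to it.

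**Figure D5:**
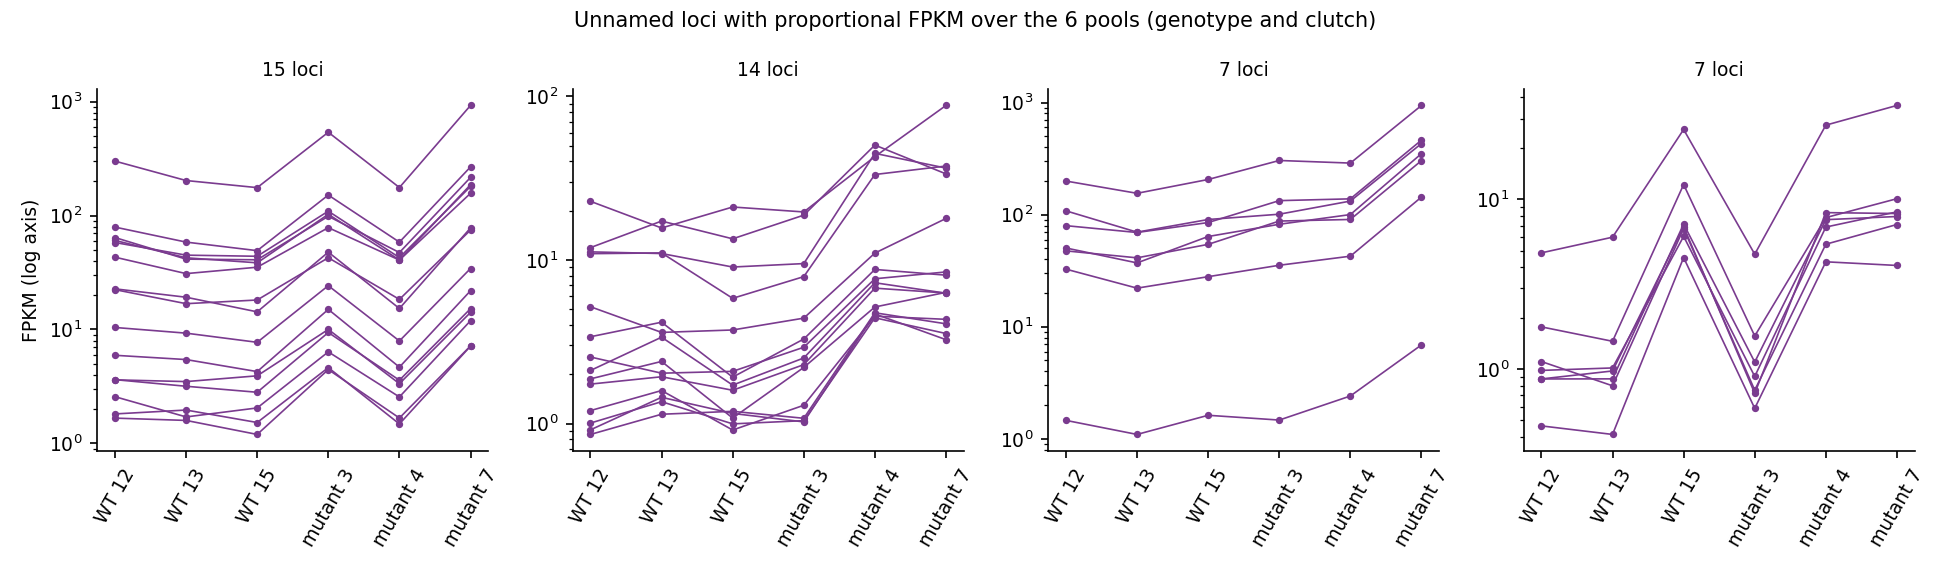
FPKM on a log axis of the unnamed loci in the 4 largest sets with proportional profiles, 1 line per locus over the 6 pools (genotype and clutch). The set of 15 is high in mutant clutches 3 and 7, the set of 14 in mutant clutches 4 and 7, and the last set of 7 is high in WT clutch 15 and mutant clutches 4 and 7.

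Sequences of these loci were not compared, since no genome of this build was used here, so whether loci of a set share reads or a repeat was not tested. Within 1 Mb of *zrsr2* there were 9 unnamed loci, 1 of which was called, where 4.07% of all loci tested were. This was MSTRG.2210 (13275075 to 13276517, minus strand), at 1.25, 1.52 and 0.833 FPKM in WT and 0.376, 0.233 and 0.474 FPKM in mutants (adjusted p = 0.0488 from limma). It passed the threshold only through the WT pools, with means of 1.20 FPKM in WT and 0.361 FPKM in mutants. Its call was lost whichever pool was left out (adjusted p of 0.0638 to 0.154 from limma). Its nearest named locus, *abcb11b*, 2990 bases away on the other strand, was called lower too (log2 fold change -2.45, adjusted p = 0.00872 from limma). Whether the fall of MSTRG.2210 is tied to that of *abcb11b* was not tested. Between MSTRG.2187 and MSTRG.2191 lay MSTRG.2188, MSTRG.2189 and MSTRG.2190, all with 1 exon on the minus strand and all highest in WT clutch 15 and mutant clutches 4 and 7. These loci near *zrsr2* were named after their values were seen. Embryos of a homozygous mutant pool share the parental haplotype around the mutated gene, and its part in the values of these loci was not tested.

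As a share of all FPKM, unnamed loci took 5.54%, 7.80% and 3.79% in WT and 7.76%, 4.54% and 6.43% in mutants, so that the genotypes overlapped. MSTRG.81 and MSTRG.82 account for much of this, and without them the share was 2.76%, 2.55% and 2.25% in WT and 2.48%, 3.25% and 4.15% in mutants, still overlapping because of mutant clutch 3. In FPKM as deposited, the number of unnamed loci at 0.5 FPKM or more was 3787, 3960 and 3647 in WT. It was 3755, 4091 and 4194 in mutants, which overlapped with WT for the same reason. The mean number was 3798 in WT and 4013 in mutants as deposited, and 3720 and 4074 after scaling. Scaled numbers of the single pools are not given. No test of these shares was run, since the loci had been selected on all 6 pools together.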

How the data were processed

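Each of 6 libraries (TruSeq Stranded Total RNA) was made from a pool of 10 embryo bodies, 3 WT and 3 mutant. The authors removed low-quality reads, used HISAT2 2.2.1.0 for alignment to GRCz11 and estimated transcripts with StringTie 2.0.3, versions as in the submitters' processing notes. FPKM were deposited by the authors per transcript as StringTie gave them. The coverage deposited by the authors is the mean read depth of a transcript and was used with its length for bases and depth. The read number behind a value is unknown, so no counting interval is given, and p-values measure only the spread between pools.

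FPKM were summed per locus, divided by median-of-ratios factors (0.864 to 1.07) and analysed as log2(FPKM + 0.1), which understates changes of low loci, with limma 3.58.1 in R 4.3.3 (empirical Bayes with intensity trend and two-sided p, adjusted by Benjamini-Hochberg over 25349 loci with a mean of at least 0.1 FPKM). The fit was also run on simulated data in which each locus varied independently. Loci of the real data shared profiles over the pools, so that run cannot tell how reliable the calls are. Named loci were the 10 largest rises and falls among called loci without overlap, the 8 highest in FPKM, the 5 with most exons, the 5 longest and those next to the threshold; others are marked. Their nearest named loci are given, except 1 that is not reported here. The members and lists were chosen with earlier results of these data known. Exact permutation tests planned for the shares over members were not run, and sequence features were not analysed, since no genome was used here.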

Additional observations from a re-analysis of the deposited data

How the results depend on the processing

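Direction held better than the number of calls. Against 236 called loci (5.21%, with 4.07% of all loci tested), 82 were called with a pseudocount of 1 FPKM (1.81%, with 1.71% of all). In restricted lists there were 143 at a mean of at least 1 FPKM (5.23%), 117 with at least 0.5 FPKM in every pool (4.27%), 78 with 2 or more exons (5.01%, 44 higher and 34 lower) and, as an alternative added after seeing the data, 133 with a mean of at least 0.5 FPKM in both genotypes (3.44%). Leaving out 1 pool gave 47 to 517 calls. The cause of these differences was not tested, apart from the smaller number of loci in the restricted lists. The median log2 fold change of 0.40 was 0.23 with a pseudocount of 1 FPKM and 0.25 without scaling. Without scaling the calls were 105 higher and 73 lower, against 186 higher and 50 lower. The median difference of downstream loci from their neighbours, 0.80, was 0.47 with a pseudocount of 1 FPKM. With 1 kb in place of 5 kb, 681 loci counted as downstream in place of 1478. The sign turned, in loci that were never called, for MSTRG.81 without scaling (-0.10) and when 1 pool was left out for MSTRG.81 (-0.60 to 0.57), MSTRG.7140 (-0.08 to 0.28), MSTRG.15364 (-2.68 to 0.18), MSTRG.2185 (-0.02 to 3.01) and MSTRG.14116 (-0.27 to 2.89). Without WT clutch 13 the values of MSTRG.7140 and MSTRG.2185 were -0.075 and -0.024. No paired analysis was possible because the clutch numbers of both genotypes differ. Depth limits the low loci most, since the median member rests on 12.1 kilobases per pool.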
